A study of Homo sapiens with 6 samples.

Results

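The genes described here encode the DEAD and DEAH box RNA helicases, the families whose human members are named DDX and DHX. They were chosen by name. Rows of the deposited gene table whose symbol starts with DDX or DHX and a number were taken, without antisense transcripts, numbered pseudogenes and the viral RNA sensors DDX58 and DHX58, if their mean over the 6 libraries was at least 10 counts. Of 61 names that matched, 48 reached that mean, among 15953 genes that reached it and 50868 genes in the table. The 13 names below it included DDX25, with a mean of 2.5 counts, and DDX4, with 1.5, both known for their expression in germ cells, and DDX60L, with 1.0. Names with 0 counts in every library numbered 7. The names below the minimum also held the DDX11L series (DDX11L1, DDX11L2, DDX11L5, DDX11L8, DDX11L9, DDX11L10 and DDX11L16), which the naming rule did not exclude. DDX60, with a mean of 85.0 counts, was the member nearest to the minimum. The annotation calls 47 of the 48 protein-coding. The other is DDX12P, an unprocessed pseudogene closely related to DDX11, which the naming rule let through.

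Total RNA was taken from HEK-293T, an established human embryonic kidney line that carries the SV40 large T antigen, labelled as wild type in both groups. The 3 control libraries came from cells given DMSO-containing medium for 12 h, and the 3 treated libraries from cells given nitidine chloride, a plant alkaloid, at 10 µM for 12 h. The labels do not say whether these came from separate cultures, so p-values measure the spread between these libraries, which may be technical. Library totals ran from 12688093 to 16357992 counts. Of 7 markers chosen for this line, 6 had an FPKM of at least 1 in every library and PAX2 did not, and their sum was 93.4 to 119 FPKM in DMSO and 108 to 139 FPKM after nitidine chloride. VIM made up most of that sum, while CDH2 had between 7.62 and 8.31 FPKM in DMSO and between 2.0 and 2.1 FPKM after treatment, and NEFM between 12.0 and 13.4 against between 9.19 and 9.63 FPKM. Blood and endothelial markers stayed below 1 in every library (6 of 6 and 4 of 4), with HBB and CD3E at 0 counts, and of 5 fibroblast markers only COL1A1 reached 1. The blood list summed to 0.37 to 0.592 FPKM in DMSO and 0.644 to 0.874 FPKM after treatment, the endothelial list to 0.191 to 0.285 and 0.64 to 0.783, and the fibroblast list to 2.74 to 3.16 and 4.7 to 5.18. Their part in the results was not tested.

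DEAD and DEAH box proteins bind RNA and use ATP to separate short duplexes, to remove proteins from RNA or to clamp onto it. They carry the name of a conserved run of amino acids in the ATP-binding core. DEAD box proteins mostly open duplexes locally, whereas DEAH box proteins move along a strand and are often switched on by partners with a G-patch motif. Between them they drive the steps of the spliceosome, the folding of pre-ribosomal RNA in the nucleolus, export of mRNA, start of translation and decay of mRNA.

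After nitidine chloride, 16 of the 48 helicase genes were higher, 12 were lower and 20 did not pass the test. Calls rest on the quasi-likelihood test of edgeR, adjusted by Benjamini-Hochberg over all 15953 tested genes, at a threshold of 0.05. In bulk RNA, fewer cells with a transcript and less of it per cell cannot be told apart. It called 58.3% of the helicase genes and 51.7% of all tested genes. The higher share was 33.3% of the helicase genes against 24.7% of all genes, and the lower share was 25.0% against 27.0%. Their median log2 fold change was 0.04, against 0.01 for all tested genes. Changes were small. Only DDX10 and DDX46 changed at least 2-fold (4.17% of members), against 15.6% of all tested genes. Values of both groups did not overlap for 32 members (66.7%, against 60.7% of all tested genes). With libraries scaled by their totals alone, in place of TMM scaling, 20 members were higher and 9 lower, and the median of all tested genes moved from 0.01 to 0.12, so directions are relative to the TMM scale. In that setting 69.0% of the called members were higher, against 57.1% with TMM scaling. Over all tested genes the share of called genes that were higher also moved, from 47.7% with TMM scaling to 57.9%.

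The families differed in their counts. Of 33 DDX genes, 13 were higher and 6 lower (39.4% and 18.2%, against 24.7% and 27.0% of all tested genes). The median log2 fold change of the DDX genes was 0.15. Of 15 DHX genes, 3 were higher and 6 lower, with a median of -0.10. The DHX genes were also longer, with a median genomic span of 48.4 kb against 28.3 kb, where span is the distance from the start to the end of the gene in the table, introns included. The difference between the families was not tested.

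**Figure D1:**
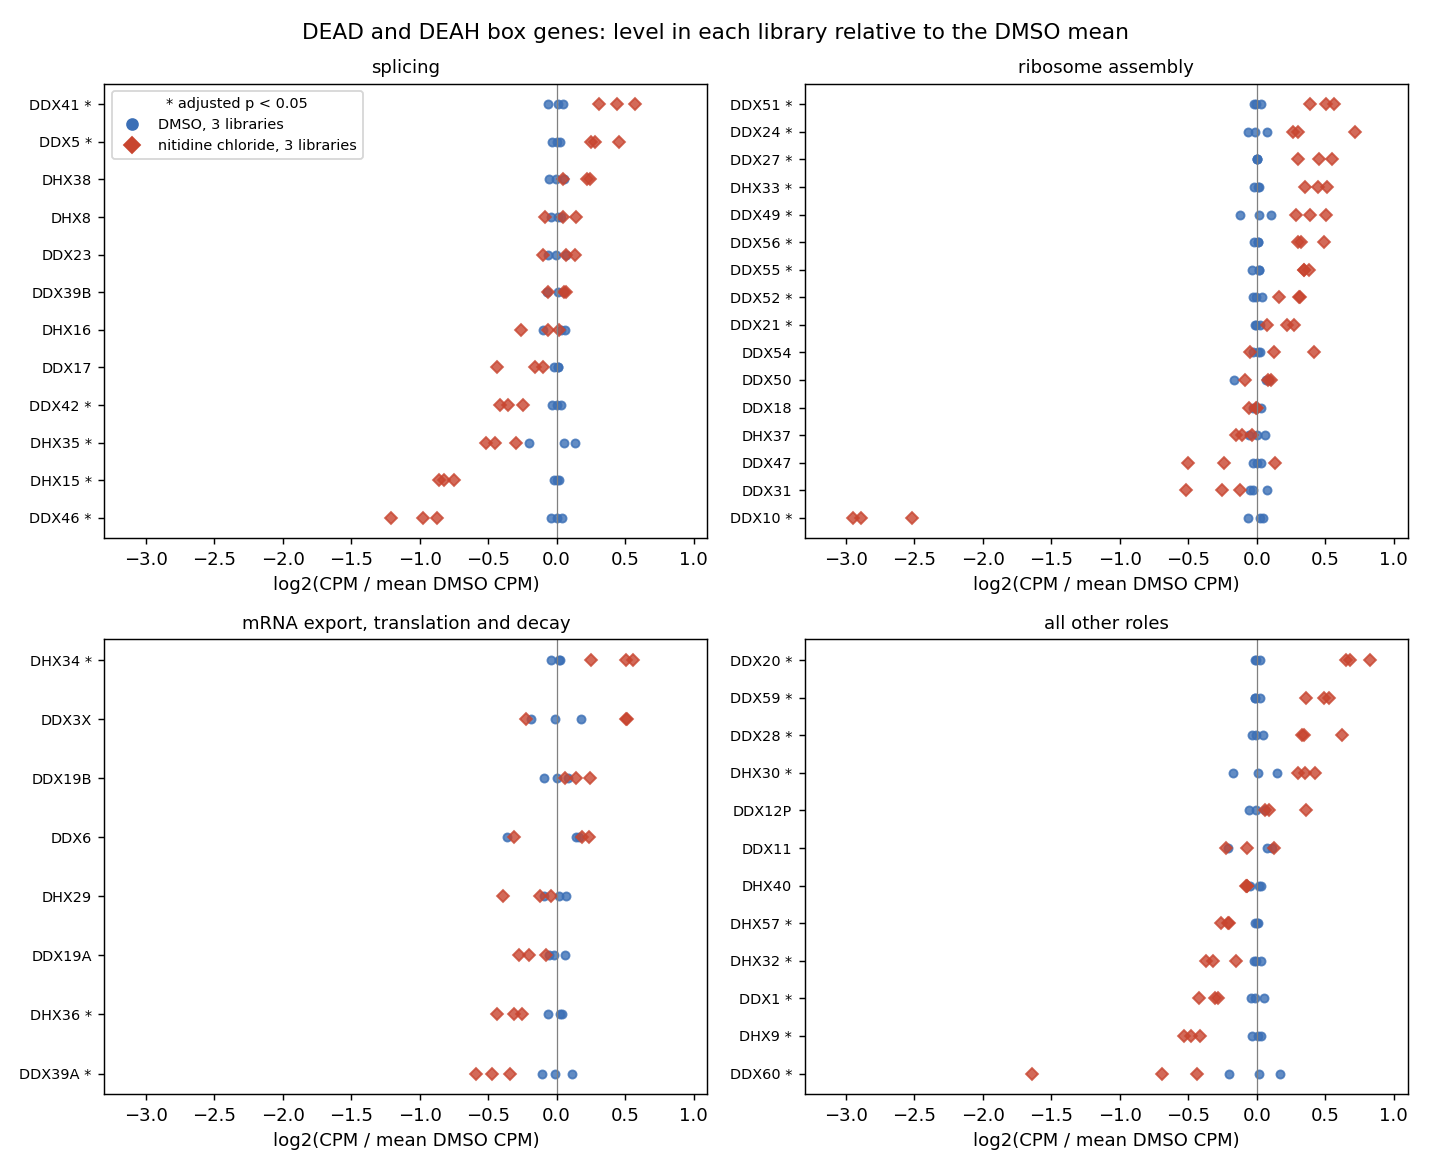
Level of each of the 48 helicase genes in each library, as log2 of its CPM over the mean DMSO CPM (horizontal axis), grouped by role. Circles are the 3 DMSO libraries, diamonds the 3 nitidine chloride libraries, and a star marks an adjusted p under 0.05. DDX10 lies far to the left of all others, and 9 of the 16 ribosome assembly genes lie to the right of their DMSO libraries with a star.

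Helicases of ribosome assembly were the largest role group. These nucleolar proteins remodel pre-ribosomal RNA and release small nucleolar RNAs from it. Of 16 members, 9 rose, 1 fell and 6 did not pass, with a median log2 fold change of 0.23. That is 56.2% higher and 6.25% lower, against 24.7% and 27.0% of all tested genes. Among the 10 whose span no other counted gene overlaps, 5 rose and 1 fell. Without nitidine chloride replicate 1, or without replicate 2 of that group, 2 of the 16 fell. DDX51, which acts in maturation of the large subunit, had 59.3, 60.7 and 58.8 CPM (the count scaled to a common library size after TMM) in DMSO against 78.1, 88.0 and 84.4 CPM after nitidine chloride. Every treated library was above every DMSO library. The log2 fold change was 0.49 ± 0.07 (SE; edgeR, adjusted p = 6.46e-04).

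DDX27, a helicase of large subunit assembly, had 125.7, 125.7 and 126.0 CPM in DMSO, almost without spread. It had 155.0, 183.6 and 172.6 CPM after nitidine chloride, a log2 fold change of 0.44 ± 0.07. DDX27 overlaps ZNFX1 on the opposite strand, which rose with 0.29. DHX33 rose with 0.44 ± 0.06, from between 132.8 and 135.9 to between 171.8 and 192.2 CPM. DDX56, DDX49, DDX55 and DDX52 rose with 0.37 ± 0.07, 0.40 ± 0.09, 0.36 ± 0.06 and 0.26 ± 0.07. Their groups did not overlap either. Reads of DDX55 cannot be told apart from those of EIF2B1 on the opposite strand where both overlap, because the strand setting of the counting is not given in the sources used here. DHX33 overlaps C1QBP on its own strand, which had more counts than DHX33 itself (means of 7676 and 2278).

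DDX24 and DDX21 rose less evenly. DDX24, a nucleolar helicase, had 148.5, 163.3 and 154.2 CPM in DMSO against 254.9, 191.3 and 186.2 CPM after nitidine chloride. All treated libraries were above DMSO, but nitidine chloride replicate 1 was far above the others. OTUB2, on the opposite strand, rose with 0.59. The adjusted p of DDX24 in edgeR's test was 0.0182, and it rose to 0.0567 when DMSO replicate 1 was left out and to 0.0523 when DMSO replicate 3 was. The log2 fold change of DDX24 was 0.44 ± 0.12, and 0.28 without nitidine chloride replicate 1 (adjusted p = 0.0143). DDX21, which acts in both rRNA transcription and rRNA processing, had 778.7, 800.5 and 781.5 CPM in DMSO against 948.4, 828.4 and 918.0 CPM after nitidine chloride. This was the smallest called rise, 0.19 ± 0.06, at an adjusted p of 0.0386 in edgeR's test. The call of DDX21 was lost with DESeq2 (adjusted p = 0.0502) and without any of DMSO replicates 1, 2 and 3 and nitidine chloride replicates 1 and 3, where edgeR's adjusted p lay between 0.0711 and 0.115.

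DDX10 was the exception in this role group and had the lowest fold change of all 48 members. It encodes a nucleolar helicase of small subunit assembly. It had 71.2, 75.6 and 76.7 CPM in DMSO against 9.65, 10.0 and 13.0 CPM after nitidine chloride. The treated libraries held between 138 and 181 counts, against 866 to 1208 in DMSO. The log2 fold change was -2.77 ± 0.12, a 6.84-fold lower level (edgeR, adjusted p = 2.06e-06). The groups were far apart. DDX10 (ENSG00000178105) lies at chr11:108665025-108940930 on the plus strand of GRCh38 and spans 275.9 kb, the longest span among the members, of which annotated exons cover 8.65 kb. It is overlapped by no other counted gene.

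The other 6 ribosome assembly helicases did not pass. DDX18, DDX50, DHX37 and DDX54 had log2 fold changes of -0.02, 0.03, -0.10 and 0.18. DDX31 had 41.8, 41.3 and 44.8 CPM in DMSO against 29.8, 39.2 and 35.8 CPM after nitidine chloride. Its treated libraries were all below DMSO, at a log2 fold change of -0.29 ± 0.11 and an adjusted p of 0.0631 in edgeR's test, which was 0.0244 without nitidine chloride replicate 2. GTF3C4 on the opposite strand had a mean of 3892 counts against 556.7 for DDX31, and rose with 0.59. DDX54 had an adjusted p of 0.222 in edgeR's test and 0.0498 without nitidine chloride replicate 1. DDX47 had 74.5, 76.2 and 73.1 CPM in DMSO but 81.9, 52.8 and 63.3 CPM after nitidine chloride. Its treated libraries lay on both sides of the DMSO range. DDX47 overlaps APOLD1 on the same strand, and without nitidine chloride replicate 1 its log2 fold change was -0.36, with an adjusted p of 0.0199.

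Helicases of the spliceosome had 4 of 12 members lower, 2 higher and 6 not passing, with a median log2 fold change of -0.04. These shares, 33.3% lower and 16.7% higher, were near those of all tested genes, 27.0% and 24.7%. Of the 4 that no counted gene overlaps, 2 fell and 1 rose. Those that fell act at different steps of splicing. DDX46, the human counterpart of yeast Prp5, which prepares the U2 snRNP for the branch site, had 227, 232 and 220.3 CPM in DMSO against 115, 98.2 and 124 CPM after nitidine chloride. The treated libraries were all far below DMSO, and the log2 fold change was -1.01 ± 0.09 (adjusted p = 6.14e-05 in edgeR's test). DDX46 (ENSG00000145833, chr5:134758771-134855133, plus strand) spans 96.4 kb and overlaps C5orf24 on the same strand, which had a log2 fold change of 0.24 and did not pass.

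DHX15, the counterpart of yeast Prp43, takes apart spent spliceosomes and also acts in ribosome assembly. It had 371, 365 and 374 CPM in DMSO against 209.7, 204 and 220.0 CPM after nitidine chloride. Both groups were tight and far apart, with a log2 fold change of -0.81 ± 0.06 and an adjusted p of 1.65e-05 in edgeR's test. DHX15 (ENSG00000109606, chr4:24517441-24584550, minus strand) spans 67.1 kb and no other counted gene overlaps it. DDX42, a protein associated with SF3b, fell with -0.34 ± 0.06 from 156, 164 and 160.3 to 120.4, 125.5 and 135 CPM. It overlaps CCDC47 on the opposite strand, which rose with 0.31. DHX35, a late-step spliceosome protein, had 24.0, 28.7 and 30.3 CPM in DMSO against 19.4, 22.5 and 20.3 CPM after nitidine chloride, a log2 fold change of -0.42 ± 0.12. The adjusted p of DHX35 in edgeR's test was 0.0175, and it was 0.0644 without DMSO replicate 2, 0.0662 without DMSO replicate 3 and 0.0541 without nitidine chloride replicate 1.

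DDX41 and DDX5 were the spliceosome members that rose. DDX41, known for inherited variants that predispose to myeloid leukaemia, had 82.4, 84.7 and 78.3 CPM in DMSO against 101.5, 121.7 and 111.2 CPM after nitidine chloride. Its log2 fold change was 0.45 ± 0.08, with no overlap between groups and no other counted gene over its 5.89 kb. DDX5, also called p68, a splicing factor and transcriptional coregulator, rose with 0.33 ± 0.07, from 639.6, 655.9 and 664.3 to 793.3, 776.6 and 895.2 CPM. CEP95, on the strand opposite DDX5, had -0.14 and did not pass. DHX16, DHX8, DDX23, DDX39B and DHX38, all ATPases of the splicing cycle, had log2 fold changes between -0.10 and 0.18 and did not pass. Among them DHX38 had 148.5, 137.8 and 142.9 CPM in DMSO against 148.2, 169.9 and 166.5 CPM after nitidine chloride, overlapping groups. Its adjusted p in edgeR's test was 0.0744, which was 0.0384 when only genes averaging at least 50 counts were tested and 0.0230 without nitidine chloride replicate 1.

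Helicases of mRNA export, translation and decay mostly did not pass, with 1 of 8 members higher, 2 lower and 5 not passing (12.5% and 25.0%, against 24.7% and 27.0% of all tested genes). Without nitidine chloride replicate 2, 2 rose and 3 fell. DDX39A, a close relative of the export helicase DDX39B, had 138, 119 and 127 CPM in DMSO against 92.5, 101 and 85.3 CPM after nitidine chloride. Its log2 fold change was -0.46 ± 0.09, the only fall among 14 members that span less than 20 kb. DHX36, which unwinds G-quadruplexes, fell with -0.33 ± 0.07 from between 112.5 and 120.9 CPM to between 86.9 and 98.8 CPM. DHX34, a factor of nonsense-mediated decay, had 75.1, 71.8 and 74.6 CPM in DMSO against 88.0, 105.1 and 108.6 CPM after nitidine chloride, a log2 fold change of 0.45 ± 0.09.

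DDX3X, a translation helicase on the X chromosome, varied widely. It had 505.5, 392.1 and 442.1 CPM in DMSO against 634.3, 383.4 and 638.8 CPM after nitidine chloride. Nitidine chloride replicate 2 lay below every DMSO library and the other treated libraries above all of them. Its log2 fold change was 0.31 ± 0.19 at an adjusted p of 0.223 in edgeR's test, and without nitidine chloride replicate 2 it was 0.51, with an adjusted p of 0.00812. DDX6, a helicase of translational repression and decapping, had 249.3, 244.6 and 172.6 CPM in DMSO against 262.4, 252.4 and 179.3 CPM after nitidine chloride. The library numbered 3 was the low one in both groups. The log2 fold change of DDX6 was 0.06 ± 0.18 (adjusted p = 0.809 in edgeR's test). DHX29, which helps ribosomes scan structured leaders, had -0.18 ± 0.10 and did not pass.

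Among the remaining members, DDX20 had the highest fold change of all. DDX20, or Gemin3, belongs to the SMN complex that loads Sm proteins onto small nuclear RNAs. It had 59.9, 58.8 and 58.4 CPM in DMSO against 92.8, 94.4 and 104.4 CPM after nitidine chloride, a log2 fold change of 0.72 ± 0.07 and an adjusted p of 8.32e-05 in edgeR's test. DDX20 (ENSG00000064703, chr1:111755245-111768016, plus strand) spans 12.8 kb. It overlaps INKA2 on the opposite strand, which rose with 1.15 and had a mean of 305.5 counts against 1125 for DDX20. The part of INKA2 reads in the count of DDX20 was not tested. DDX1, a subunit of the tRNA ligase complex, fell with -0.33 ± 0.06, from between 338.0 and 361.2 CPM to between 259.1 and 286.0 CPM.

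Both helicases of mitochondrial RNA, DDX28 and DHX30, rose, as did 24.7% of all tested genes. Among tested genes that span less than 20 kb, as DDX28 does, 35.8% rose. From 20 to 50 kb, the class of DHX30, 30.8% rose. DDX28, which acts in assembly of the large mitochondrial ribosomal subunit, had 32.1, 33.4 and 31.4 CPM in DMSO against 40.5, 49.7 and 41.1 CPM after nitidine chloride, a log2 fold change of 0.44 ± 0.10. It has no intron and lies opposite DUS2, whose log2 fold change was -0.05. DHX30, found in mitochondrial RNA granules, rose with 0.36 ± 0.09, from 244.6, 221.9 and 196.0 to 272.5, 281.9 and 295.9 CPM. DDX59, which has a helicase core and is linked to an inherited developmental syndrome, rose with 0.46 ± 0.08, from 22.9, 23.5 and 22.9 to 29.6, 33.2 and 32.4 CPM.

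DHX9 and DDX60, the members grouped here under double-stranded RNA or induction by interferon, both fell, as did 27.0% of all tested genes. Among tested genes that span 20 to 50 kb, as DHX9 does, 12.2% fell. At 100 kb or more, the class of DDX60, 80.4% fell. DHX9, or RNA helicase A, had 807, 795 and 771 CPM in DMSO against 546, 568 and 594 CPM after nitidine chloride. This drop from an abundant transcript gave a log2 fold change of -0.47 ± 0.06, at an adjusted p of 2.80e-04 in edgeR's test. DDX60, an interferon-induced gene, was the weakest expressed member, at 6.66, 8.61 and 7.74 CPM in DMSO against 5.66, 2.46 and 4.75 CPM after nitidine chloride. Nitidine chloride replicate 2 was the lowest. These levels rest on few counts, 81, 121 and 122 against 81, 39 and 66, and the groups do not overlap in CPM. Its log2 fold change was -0.85 ± 0.28 at an adjusted p of 0.0364 in edgeR's test. Without nitidine chloride replicate 2 it was -0.56, again at an adjusted p of 0.0364. The p was 0.116 without DMSO replicate 2, 0.0802 without DMSO replicate 3, 0.0563 without nitidine chloride replicate 3 and 0.0645 with scaling by library totals alone.

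DHX57, little characterised, fell with -0.23 ± 0.06, from 94.9, 95.4 and 93.6 to 78.8, 82.2 and 81.8 CPM. DHX32, also little characterised, fell with -0.28 ± 0.08, from 54.5, 53.1 and 52.7 to 41.2, 48.1 and 42.8 CPM. BCCIP, opposite DHX32, had more counts (means of 2276 and 697.7) and a log2 fold change of -0.05. For DHX57 the adjusted p of 0.0103 in edgeR's test became 0.0882 with scaling by library totals alone. DHX32 had 0.0220, which became 0.0790 with that scaling and lay between 0.0561 and 0.0686 without any of DMSO replicates 1, 2 and 3 and nitidine chloride replicates 1 and 3. DHX40 had -0.07 and did not pass. Neither did the DNA helicase of sister chromatid cohesion, DDX11, with -0.05 ± 0.12, nor its pseudogene relative DDX12P, with 0.17 ± 0.09, for which edgeR's adjusted p of 0.161 was 0.0447 with scaling by library totals alone. Because DDX11 and DDX12P are near-identical in part, the split of reads between them is uncertain.

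Genomic span went along with the direction of change. All 16 members that rose were among the 37 that span less than 50 kb. Of the 11 members of 50 kb or more, 8 fell and 0 rose. The same order was seen across all tested genes. Below 20 kb, 8 of 14 members rose and 1 fell (57.1% and 7.14%, against 35.8% and 8.8% of all tested genes in that class). From 20 to 50 kb, 8 of 23 rose and 3 fell (34.8% and 13.0%, against 30.8% and 12.2%). From 50 to 100 kb, 6 of 9 fell and 0 rose (66.7% and 0.0%, against 39.8% and 10.5%). At 100 kb or more both members fell, as did 80.4% of the class, of which 2.12% rose. Across the 48 members, Pearson's r between log2 fold change and log10 span was -0.65, and it was -0.44 over all 15953 tested genes. These are descriptions over genes of the same libraries.

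Within their span classes some members still stood low. DDX46 was lower than all but 4.06% of the tested genes between 50 and 100 kb, and DHX15 than all but 9.43%, where the median of the class was -0.21. DHX9 was lower than all but 7.59% of the genes between 20 and 50 kb, a class with a median of 0.13. DDX39A was lower than all but 10.9% of the genes below 20 kb, where the median was 0.22. DDX10 was lower than all but 9.84% of genes of 100 kb or more, whose median was -1.10, while DDX60 at 102.5 kb was higher than 62.7% of them. DDX20 was higher than 85.3% of the genes below 20 kb. DHX8, at 60.6 kb, was the only member of 50 kb or more with a log2 fold change above 0, at 0.04, and was higher than 71.6% of its class.

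**Figure D2:**
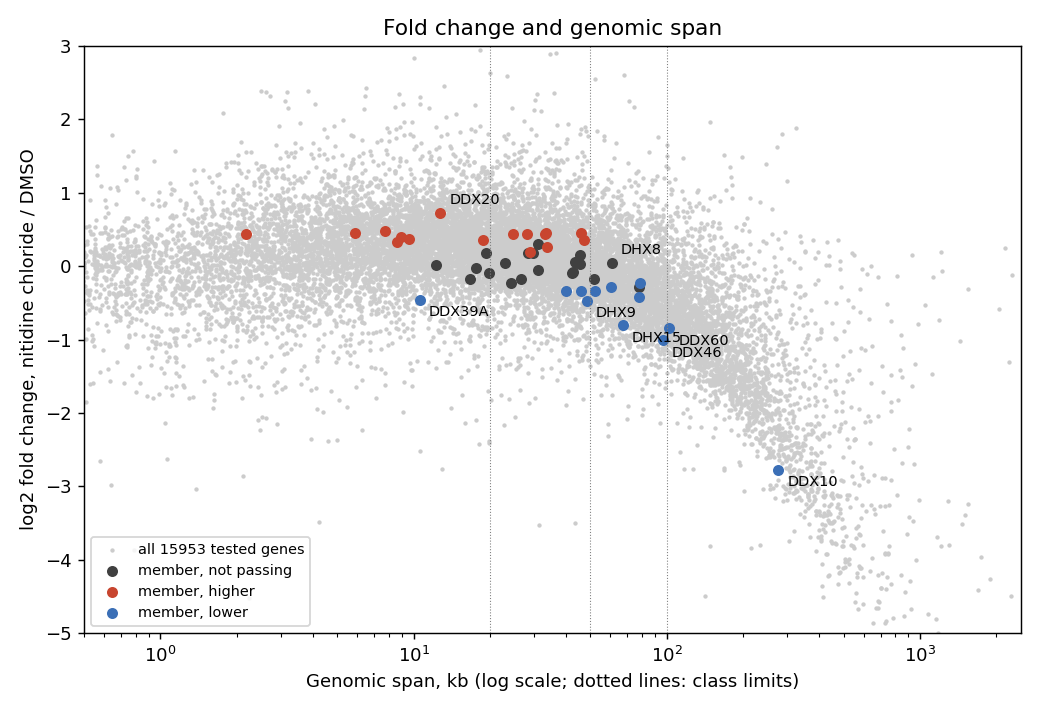
Log2 fold change (vertical axis) against genomic span in kb (horizontal axis, log scale) for all 15953 tested genes in grey and for the 48 helicase genes in colour, with genes beyond the axis limits not drawn and dotted lines at the class limits. Members that rose lie left of the 50 kb line, and DDX10 at 275.9 kb lies within the falling cloud of long genes.

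Levels between genes were compared as CPM per kb of annotated exons. In DMSO the most abundant members were DDX21, with 156.8 ± 2.36 CPM per kb (mean ± SD, n = 3), DHX9 with 140.1 ± 3.19, DDX17 with 99.3 ± 1.32, DDX1 with 90.7 ± 3.16 and DDX5 with 88.4 ± 1.70. DDX1 and DDX5 did not differ beyond their spread. After nitidine chloride DDX21 was still first with 178.9 ± 12.4 CPM per kb, and DDX5 with 111.2 ± 8.69 stood before DHX9 with 100.8 ± 4.27, although the last 2 did not differ beyond their spread. DHX15 went from place 7 to place 17 and DDX46 from place 17 to place 38. DDX20 moved from place 40 to place 30. Summed over all members, CPM overlapped between the groups, with 8925 to 9049 in DMSO and 8609 to 9245 after nitidine chloride. The deposited FPKM summed to 852.8 to 866.3 in DMSO and 872.6 to 951.4 after treatment, and the members' share of raw counts was 0.86% to 0.871% and 0.872% to 0.969%, both without overlap, so whether the sum separates the groups depends on the scaling.

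**Figure D3:**
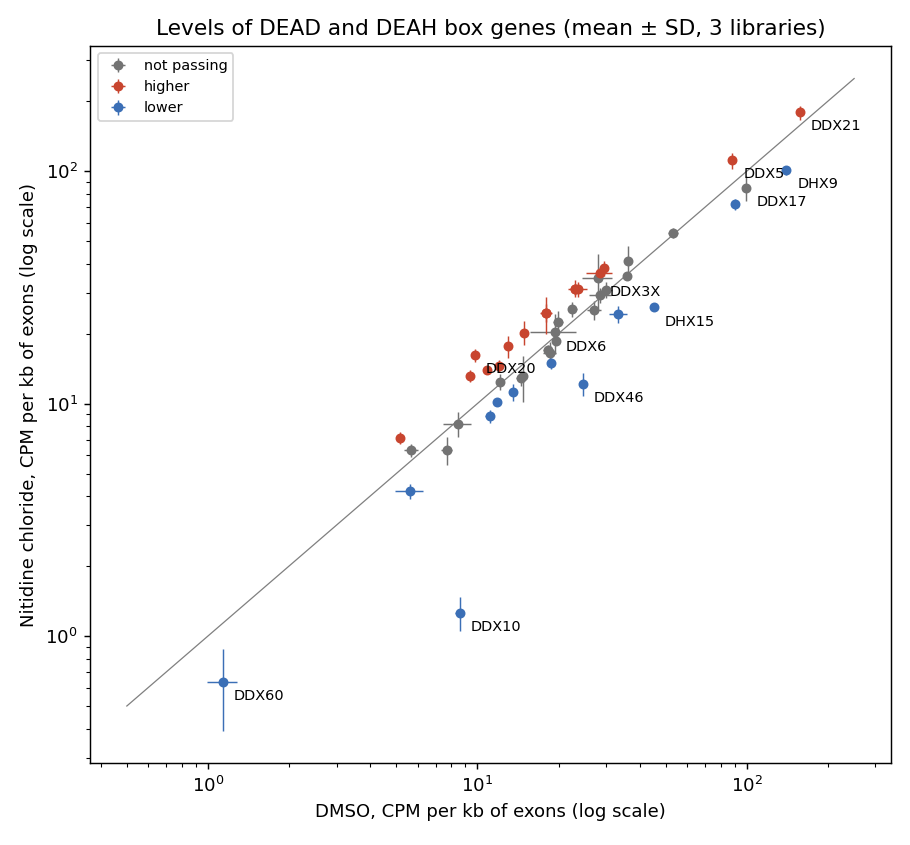
Level of each helicase gene after nitidine chloride (vertical axis) against DMSO (horizontal axis), as CPM per kb of annotated exons on log scales. Points are means, bars are SDs over 3 libraries and the line marks equal levels. DDX10, DDX60, DDX46 and DHX15 lie furthest below the line and DDX20 lies above it.

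Related helicases did not always move alike. DDX60 and DDX60L could not be compared, DDX60L having a mean of 1.0 counts. In 10 other pairs, the ratio of both genes within each library was compared between the groups. The ratio did not overlap between the groups in 8 pairs, each with p = 0.1 in a two-sided exact permutation test, the smallest that 3 against 3 libraries can give, and 0.125 after Benjamini-Hochberg adjustment over the 10 pairs. No pair could therefore pass a threshold of 0.05. Ratios of other gene pairs were not computed, and 60.7% of single tested genes did not overlap between the groups either. DDX5 and DDX17 are paralogues known as p68 and p72. Their FPKM ratio was 0.525, 0.528 and 0.532 in DMSO against 0.716, 0.851 and 0.777 after nitidine chloride, a rise of 0.56 in the log2 ratio. DDX17 itself had 977.5, 998.1 and 1002 CPM in DMSO against 889.2, 732.5 and 924.8 CPM after nitidine chloride, all below DMSO, with a log2 fold change of -0.23 ± 0.09. Its adjusted p in edgeR's test was 0.0664, and it was 0.0443 without nitidine chloride replicate 2, where the log2 fold change shrank to -0.13, and 0.0328 without replicate 3 of that group, where it was -0.29.

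The pair of DHX9 and DHX30 had the largest shift of the 10. The FPKM ratio of DHX9 to DHX30 was 4.88, 5.31 and 5.83 in DMSO against 2.97, 2.98 and 2.97 after nitidine chloride, so that the treated libraries were almost equal. The ratio of the spliceosome DEAH box genes DHX15 to DHX35 was 10.6, 8.77 and 8.5 in DMSO against 7.45, 6.25 and 7.46 after nitidine chloride. Both of these genes fell, DHX15 by more. The ratio of DDX39A to DDX39B was 0.533, 0.435 and 0.45 in DMSO against 0.356, 0.355 and 0.302 after nitidine chloride. That of DDX19A to DDX19B, export helicases at the nuclear pore, was 2.38, 2.34 and 2.13 against 1.8, 1.83 and 1.8. In both pairs the proteins are very similar, and how the counting split shared reads is not given in the sources used here. DDX19A and DDX19B also both overlap the transcript AC012184.2 on their own strand. Neither passed the test alone. DDX19A had -0.18 ± 0.07 and an adjusted p of 0.0696 in edgeR's test, which was 0.0202 without nitidine chloride replicate 2. DDX19B had 0.15 ± 0.09 and an adjusted p of 0.200, which was 0.0363 with scaling by library totals alone.

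For the other pairs, DDX47 to DDX49 had a ratio of 1.0, 1.2 and 1.05 in DMSO against 0.972, 0.539 and 0.699 after nitidine chloride, and DDX27 to DDX54 had 0.619, 0.643 and 0.628 against 0.802, 0.689 and 0.793. DHX8, which releases spliced mRNA, to DHX38, which acts between the catalytic steps of splicing, shifted least among the pairs without overlap, from 0.84, 0.933 and 0.916 to 0.814, 0.832 and 0.795. The groups overlapped for DDX21 to DDX50 (p = 0.2) and for DHX36 to DHX57 (p = 0.3 in the exact permutation test).

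**Figure D4:**
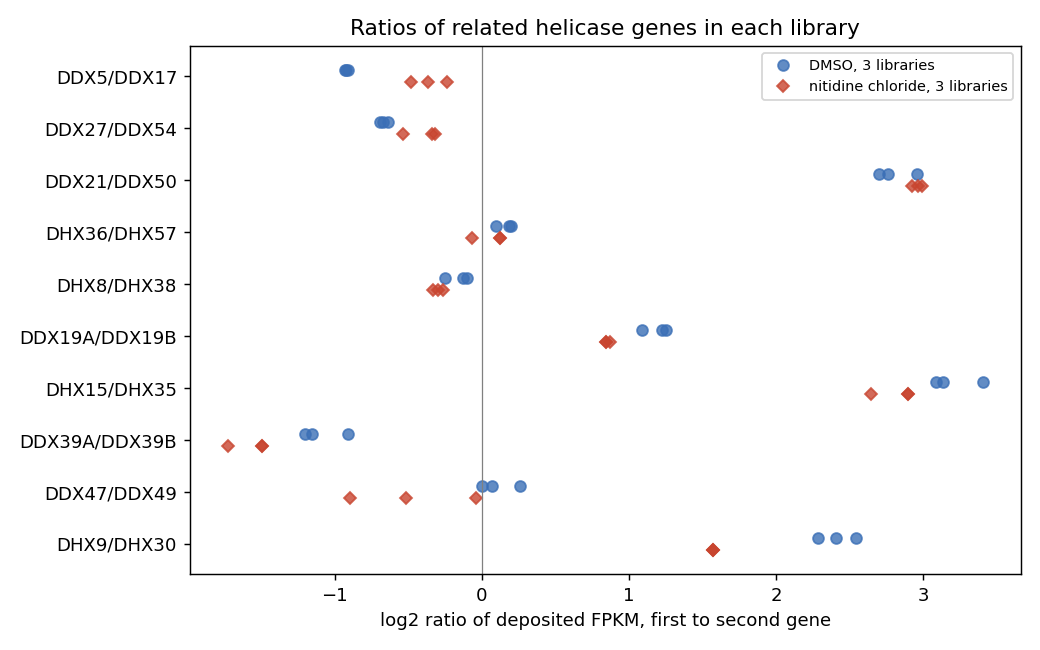
Log2 ratio of deposited FPKM of the first to the second gene of 10 pairs of related helicases (horizontal axis), with circles for the 3 DMSO and diamonds for the 3 nitidine chloride libraries. The groups are apart in 8 pairs, furthest for DHX9 to DHX30, where the treated ratios before taking log2 lie between 2.97 and 2.98.

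Promoters were examined to see whether members that moved in opposite directions differed in common promoter letters. RefSeq promoters of GRCh38.p14, from 250 bases before to 50 bases after each RefSeq gene start, were found for 43 members in 57 windows. DDX12P, DDX18, DDX49, DDX52 and DHX33 had no entry. The cAMP response element TGACGTCA was in 8.77% of the members' windows against 1.85% of all 35116 promoters. For members that rose it was in 2 of 17 windows and for members that fell in 2 of 13. The ETS motif CCGGAAG was in 40.4% of the members' windows against 10.3% of all promoters, in 7 of 17 windows of members that rose and 5 of 13 of those that fell. The E-box CACGTG was in 15.8% against 7.26%, and the NRF1 motif in 7.02% against 5.78%. The composite letters TGATGNAA bound by ATF4 with C/EBP partners were in 0 of 57 windows, against 3.62% of all promoters. All motifs were searched on both strands and may overlap each other. The 35116 promoters belong to 27305 gene symbols, more than the 15953 tested genes, so the comparison set includes genes that were not tested here. Shares among tested genes alone were not computed. A match describes letters only.

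Sequences are shown for DDX10 and DHX36, which fell, and DDX51, which rose, because all of them hold TGACGTCA, marked in capitals. DDX28, which also rose, holds it in a window that annotated exons mostly cover and is not shown. DDX19A, which did not pass, holds it as well and is not shown. Each sequence is the longest stretch of the 250 bases before the RefSeq start that no annotated exon covers, 5′ to 3′ on the strand of the gene. RefSeq starts can differ from the gene starts in the table, and those used here lie inside the table's gene for each of these members. The stretches lie before both starts, at chr11:108664819-108665024 (DDX10, plus strand), chr3:154324498-154324737 (DHX36, minus) and chr12:132144336-132144447 (DDX51, minus).
DDX10: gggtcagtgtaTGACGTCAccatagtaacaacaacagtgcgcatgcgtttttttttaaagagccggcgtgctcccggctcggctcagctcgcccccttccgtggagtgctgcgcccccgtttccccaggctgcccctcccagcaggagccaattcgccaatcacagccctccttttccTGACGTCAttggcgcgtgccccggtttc
DHX36: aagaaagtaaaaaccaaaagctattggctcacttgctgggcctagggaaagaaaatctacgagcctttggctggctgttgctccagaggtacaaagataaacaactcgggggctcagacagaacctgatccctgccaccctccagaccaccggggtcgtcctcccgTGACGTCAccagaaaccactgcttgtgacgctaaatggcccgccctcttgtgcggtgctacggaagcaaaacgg
DDX51: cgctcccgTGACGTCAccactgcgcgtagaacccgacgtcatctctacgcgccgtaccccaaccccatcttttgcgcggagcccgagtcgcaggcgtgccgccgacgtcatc
Counted from the RefSeq start, TGACGTCA began at -239 and -72 in DDX10, at -84 in DHX36 and at -120 in DDX51. These genes were chosen for holding the letters, with their directions known, so they cannot show whether letters and direction are linked.

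Other genes of RNA remodelling, taken from lists by role, were spread in both directions as well. Of 19 tested RNA helicases outside the DDX and DHX names, 7 rose and 7 fell (36.8% each, against 24.7% higher and 27.0% lower of all tested genes), with a median log2 fold change of 0.05. ASCC3, a helicase of ribosome quality control (373.2 kb), fell with -2.54 ± 0.08, HELZ (175.6 kb) with -1.65 ± 0.06 and MTREX, the helicase of the nuclear exosome (117.8 kb), with -1.47 ± 0.08. HELZ2, MOV10 and IGHMBP2 rose with 0.70 ± 0.07, 0.50 ± 0.06 and 0.45 ± 0.10. EIF4A1 and EIF4A2, the DEAD box helicases of translation initiation, had 0.05 ± 0.24 and 0.06 ± 0.10 and did not pass, whereas EIF4A3 of the exon junction complex rose with 0.44 ± 0.06.

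Among G-patch proteins, the activators of DEAH box helicases, 8 of 23 tested entries rose and 5 fell (34.8% and 21.7%, against 24.7% and 27.0% of all tested genes), with PINX1 listed under 2 gene identifiers. GPATCH4 rose with 0.76 ± 0.05, GPATCH3 with 0.63 ± 0.15 and RBM5 with 0.52 ± 0.08. RBM6 (160.0 kb) fell with -1.11 ± 0.10, GPATCH8 (108.1 kb) with -0.58 ± 0.07 and GPATCH2 (204.1 kb) with -0.58 ± 0.09. The median of all tested genes of 100 kb or more was -1.1. Of 15 MIF4G-domain and other partners of DEAD box proteins, 6 fell and 1 rose (40.0% and 6.67%, against 27.0% and 24.7% of all tested genes). EIF4G3 (370.6 kb) fell with -2.85 ± 0.10 and CNOT1 (109.9 kb), the scaffold that binds DDX6, with -0.998 ± 0.06. NUP214 (109.1 kb), a partner of DDX19 at the nuclear pore, fell with -0.73 ± 0.08. NOM1, a nucleolar MIF4G protein, rose with 0.56 ± 0.05. Of 15 exon junction and TREX partners, 5 rose and 4 fell (33.3% and 26.7%), from THOC2 (132.5 kb) with -1.32 ± 0.14, THOC1 with -0.48 ± 0.14 and THOC7 with -0.42 ± 0.10 to RBM8A with 0.54 ± 0.06, THOC5 with 0.59 ± 0.08 and POLDIP3 with 0.72 ± 0.20.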

How the data were processed

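The authors deposited raw read counts per gene and FPKM per library, per the file headers. Per the submitters' processing notes, the tools include HISAT2 2.0.4 and StringTie 1.3.0. What counted the reads, whether by strand, and with which build and annotation is not given in the sources used here. Positions of 46 of the 48 members, all but DDX3X and DHX8, were identical to those of GENCODE release 29 (GRCh38), whose exons gave the exon lengths. The length behind the deposited FPKM was 1.0 to 2.93 times that exon length, so levels between genes use the latter.

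Testing covered genes averaging at least 10 counts over the 6 libraries, with edgeR 4.0.16 (R 4.3.3): TMM scaling, quasi-likelihood test of nitidine chloride against DMSO without covariates, and Benjamini-Hochberg adjustment over all of them. The SE is the log2 fold change over the square root of the F statistic. The script was tested on simulated data. Members had mean counts from 85.0 to 13149. The members and lists were chosen with earlier results of these data known. Motifs and the promoters shown were chosen after the values were seen. Values per library are given for the top 8 and bottom 8 called members by fold change, as ratios for pairs of related members, and for members whose call depends on a setting where the text turns on them. Lists name up to 3 genes per direction. EIF4A1, EIF4A2 and EIF4A3 were named after their values were seen. Alternative settings were a block by replicate number, leaving out each library, no filter on low counts, a mean of at least 50 counts, DESeq2 1.42.0 without independent filtering, scaling by library totals and members without overlapping genes. Counts per role under them were added after seeing the data. Plots used matplotlib 3.10.9.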

Additional observations from a re-analysis of the deposited data

How the results depend on the processing

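Of 28 called members, 22 kept their call and direction in every setting tried, and DDX21, DDX24, DDX60, DHX32, DHX35 and DHX57 lost it in at least 1. Of the 20 others, 9 were called in at least 1 setting. When single libraries were left out, between 14 and 17 members were higher and between 9 and 15 lower. Over all 15953 tested genes, between 3241 and 3669 were higher and between 3751 and 4188 lower in those settings. Among members that no counted gene overlaps, 28 in number, 9 were higher and 9 lower (32.1% each, against 24.7% and 27.0% of all tested genes). Without nitidine chloride replicate 2, 17 of all 48 members were higher and 15 lower. Over all 15953 tested genes, 3625 were higher and 4188 lower in that setting.

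The sign turned for members that did not pass, and the cause was not tested. With scaling by library totals alone, DDX11 had a log2 fold change of 0.055, DDX18 0.086, DHX16 0.005, DHX37 0.007 and DHX40 0.031. With single libraries left out, DDX11 lay between -0.147 and 0.031, DDX18 between -0.035 and 0.014, DDX23 between -0.013 and 0.102, DDX39B between -0.011 and 0.061, DDX50 between -0.042 and 0.092, DDX6 between -0.094 and 0.213 and DHX8 between -0.018 and 0.095.

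The labels link same-numbered libraries by a number alone. Their deviations from the group means correlated with 0.00, -0.05 and 0.04 over 15953 genes, and only DMSO replicate 3 correlated best with its own number. Such values cannot show whether same-numbered libraries shared a culture or a batch. With a replicate block 15 members were higher and 11 lower, DDX21 and DDX60 having adjusted p of 0.0881 and 0.0591 in edgeR's test, and over all genes 3492 were higher and 4063 lower. For transcripts with few counts such as DDX60, depth limits the precision.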

Other observations

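The length behind the deposited FPKM differed from the annotated exon length by a factor that depended on the gene. For DDX49 it was 2.93 times the exon length, for DDX39A 2.75 times and for DDX5 2.61 times, against 1.04 times for DDX3X and 1.0 for the intronless DDX28. Ranked by FPKM in DMSO, DDX39A stood at place 23 and DDX49 at place 33, whereas by CPM per kb of exons they stood at places 10 and 18. DDX3X stood at place 7 by FPKM and at place 15 by CPM per kb of exons. Its position in the table, like that of DHX8, differed from the annotation that gave the exon lengths. The exon lengths of DDX3X and DHX8 are therefore less certain. Fold changes are not touched by this, since the length is the same in every library.

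The readthrough gene ATP6V1G2-DDX39B, annotated over DDX39B on the same strand, had a log2 fold change of 1.5 without passing, while DDX39B had 0.02. Reads shared by both entries make each count uncertain.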
